A study of Mus musculus with 18 samples.

Results

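Transcripts that mark B cells were followed through sorted mouse peritoneal macrophages. The members are the 7 rows of the gene table with the symbols Cd79a, Cd79b, Ms4a1, Blk, Bank1, Cd22 and Pax5, taken by symbol out of 23511 genes, and all 7 were among the 16609 genes tested. The tumor-bearing mice carried MC38-LG, a line derived from the MC38 mouse colon carcinoma, in the peritoneal cavity and were collected 10 days after tumor challenge. They had received either anti-Tim-4, given on day 7, or an isotype control antibody, for which no day is given. The no-tumor mice were untreated and were collected on the same day. Macrophages of each condition were sorted as Tim-4low or Tim-4high, which gave 6 groups of 3 libraries, anti-Tim-4 tumor Tim-4low and Tim-4high, isotype tumor Tim-4low and Tim-4high, and no-tumor Tim-4low and Tim-4high. The sources used here do not give strain, sex, age or the number of mice per library. Tim-4 is a phosphatidylserine receptor of resident cavity macrophages.

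B cells recognise antigen through a membrane immunoglobulin that signals through the paired chains CD79a and CD79b. Src family kinases such as BLK phosphorylate these chains, CD22 restrains the signal, BANK1 is a scaffold downstream of it, and the transcription factor PAX5 keeps B cells in their lineage. The peritoneal cavity holds many B cells beside its macrophages. These roles are background and not results.

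Cd79a (ENSMUSG00000003379, chromosome 7, 24897381 to 24902197, mm10, plus strand) and Cd79b (ENSMUSG00000040592, chromosome 11, 106311341 to 106314762, minus strand) encode the signalling chains of the receptor. Cd22 (ENSMUSG00000030577, chromosome 7, 30865402 to 30880342, minus strand) and Ms4a1 (ENSMUSG00000024673, chromosome 19, 11249675 to 11266241, minus strand), which encodes the surface protein CD20, are the other surface members. Blk (ENSMUSG00000014453, chromosome 14, 63372836 to 63417037, minus strand) and Bank1 (ENSMUSG00000037922, chromosome 3, 136053363 to 136326066, minus strand) encode the kinase and the scaffold. Pax5 (ENSMUSG00000014030, chromosome 4, 44524757 to 44710487, minus strand) encodes the transcription factor.

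RefSeq's promoter table (GRCm38.p6, the build of mm10) held 4 of the 7 members, Cd79a, Bank1, Cd22 and Pax5. The upstream sequences of 3 are shown because Cd79a lay closest to the mean pattern of the members, while Bank1 and Cd22 are the members whose balance between the 2 populations was called different between conditions with libraries paired by number, though not without pairing, as given below. The stretches are chr7:24897247-24897380 on the plus strand for Cd79a, chr3:136326067-136326316 on the minus strand for Bank1 and chr7:30879029-30879176 on the minus strand for Cd22, each limited to bases outside annotated exons. The Cd22 stretch lies inside the gene span given above, which on the minus strand begins at 30880342. The RefSeq start used for Cd22 thus differs from the start of that span.
Cd79a: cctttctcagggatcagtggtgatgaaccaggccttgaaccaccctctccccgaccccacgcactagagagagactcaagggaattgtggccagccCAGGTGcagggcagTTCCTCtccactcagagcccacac
Bank1: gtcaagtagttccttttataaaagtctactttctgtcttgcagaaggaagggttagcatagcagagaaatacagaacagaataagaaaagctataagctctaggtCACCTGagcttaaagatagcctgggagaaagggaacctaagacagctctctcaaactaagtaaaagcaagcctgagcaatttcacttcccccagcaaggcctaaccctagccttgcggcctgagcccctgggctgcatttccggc
Cd22: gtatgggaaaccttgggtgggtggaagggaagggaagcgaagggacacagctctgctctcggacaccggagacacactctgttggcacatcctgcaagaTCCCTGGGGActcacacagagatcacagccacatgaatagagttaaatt
Capitals mark matches, on either strand (CACCTG and TTCCTC are the other strand of CAGGTG and GAGGAA), to an E box CAGGTG (Cd79a and Bank1), to GAGGAA, a PU.1 type motif (Cd79a), and to CCCNNGGGA, an EBF1 type motif (Cd22, where matches on the 2 strands overlap). The search covered the 250 bases upstream of the RefSeq start and also used the octamer ATTTGCAT and the E box CAGCTG. Cd22 had a further CAGGTG match at positions -245 to -240 from the start, outside the stretch shown, and none of these motifs matched in Pax5. Of 32851 mouse promoter windows of the same length, 17.2% held CAGGTG, 23.3% GAGGAA, 5.6% CCCNNGGGA, 1.6% the octamer and 13% CAGCTG. These matches are descriptions of letters and not sites of binding.

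Library totals were 24530070 to 34110392 estimated counts. Summed macrophage markers (10 genes) stood at 18090 to 21650 CPM in anti-Tim-4 tumor, 18040 to 23520 CPM in isotype tumor and 27090 to 46750 CPM in no-tumor libraries, so the labelled cell type was present in all 18. CPM are counts scaled to TMM library sizes, which correct for composition. Timd4, the gene behind the sort, was at 11.9 to 29.0, 10.99 to 75.4 and 9.13 to 108.5 CPM in Tim-4low libraries of those 3 conditions, against 169 to 219, 280 to 320 and 622 to 886 CPM in the Tim-4high libraries. 2 library numbers stood apart before any comparison. No-tumor library 1 of both populations was the highest of its group for each of the 7 B cell transcripts. Isotype library 3 of both populations was likewise the highest of its group for each of the 7. The highest Timd4 value of each of these Tim-4low groups, 108.5 and 75.4 CPM, was in the same library. Nothing in the labels says that libraries of 1 group came from separate mice, so the p-values cover the spread among these libraries and no more, and that spread may be technical.

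**Figure D1:**
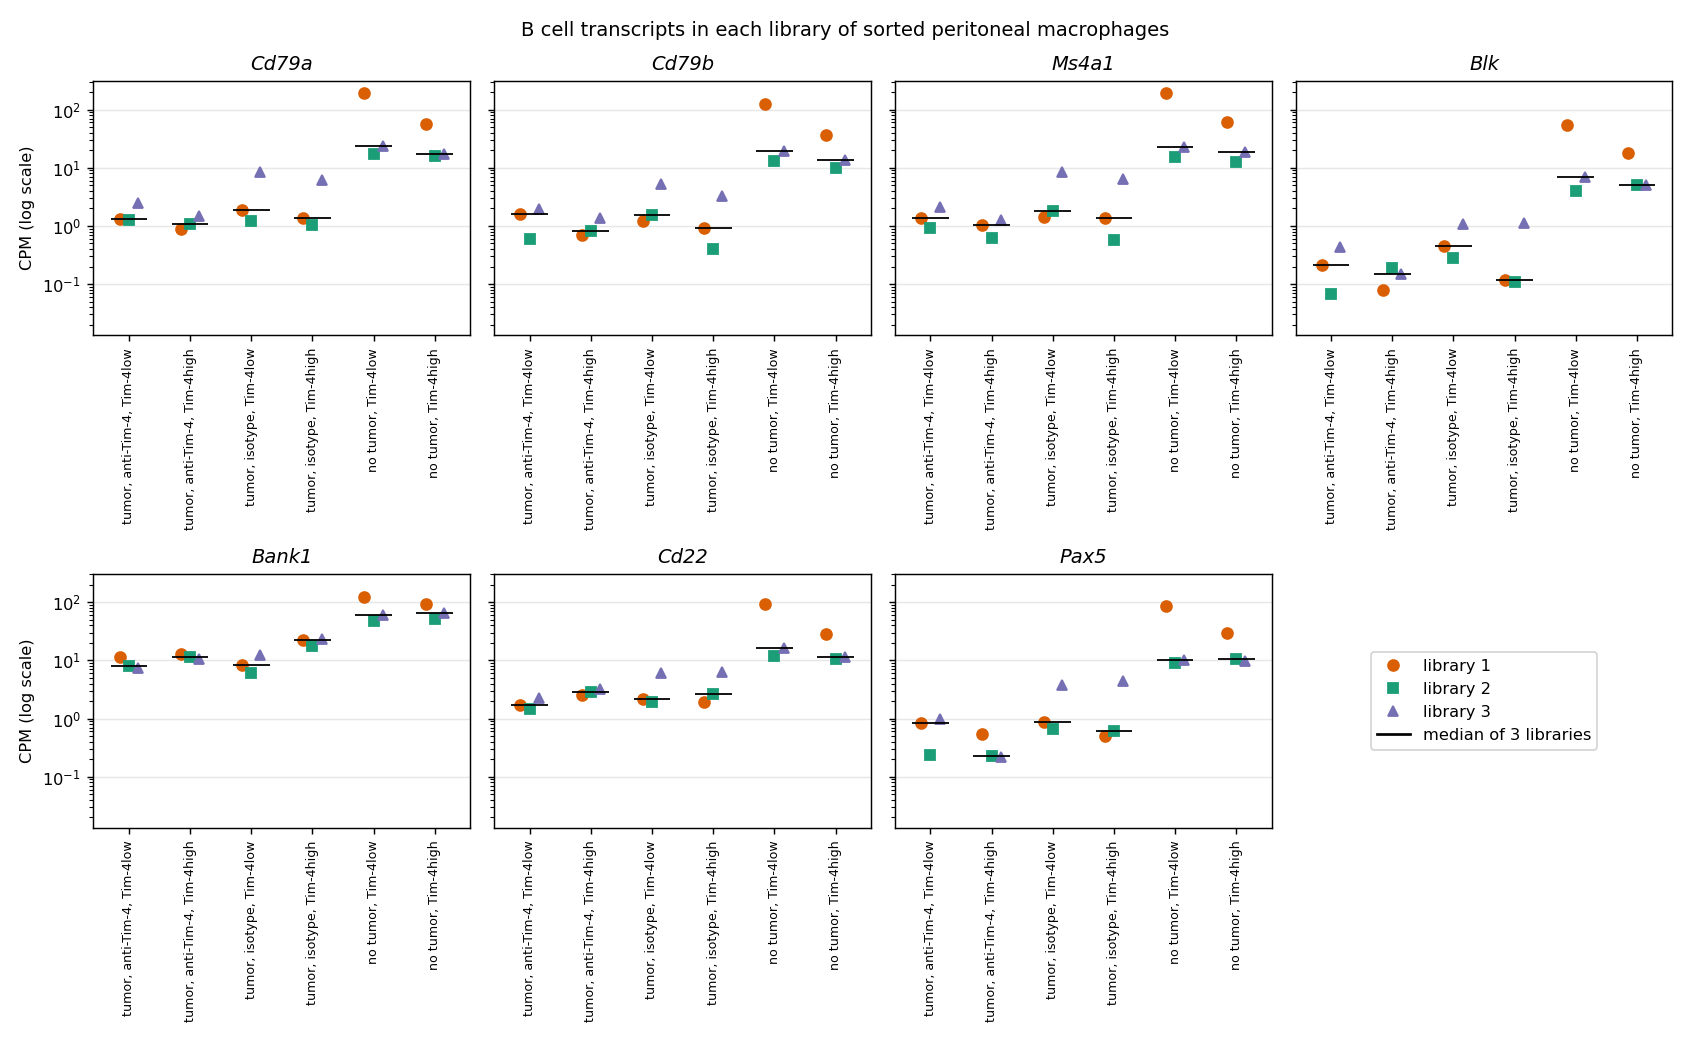
CPM (log scale) of each of the 7 B cell transcripts in the 18 libraries, with a symbol per library number and a bar at the median of each group. All 12 tumor libraries lie below all 6 no-tumor libraries in every panel, and no-tumor library 1 is the highest point of the no-tumor groups.

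Cd79a showed the pattern shared by most members. It was at 1.33, 1.28 and 2.46 CPM in anti-Tim-4 tumor Tim-4low libraries 1 to 3 and at 0.893, 1.08 and 1.5 CPM in the Tim-4high libraries. Isotype tumor libraries had 1.84, 1.23 and 8.41 CPM in Tim-4low and 1.34, 1.05 and 6.16 CPM in Tim-4high cells. No-tumor libraries had 196, 17.3 and 23.3 CPM in Tim-4low and 56.8, 16.1 and 17.6 CPM in Tim-4high cells. Every tumor library thus lay below every no-tumor library, the highest tumor values being both isotype libraries 3 and the highest no-tumor values both libraries 1. In counts, the 12 tumor libraries held 23 to 263 and the 6 no-tumor libraries 408 to 5610 Cd79a reads.

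Its partner Cd79b ranged over 0.399 to 5.25 CPM (median 1.28) in the 12 tumor libraries and 9.75 to 124 CPM (median 16.3) in the 6 no-tumor libraries. Ms4a1 ranged over 0.58 to 8.51 CPM (median 1.38) in tumor and 12.4 to 193 CPM (median 20.7) in no-tumor libraries. For both genes the tumor and no-tumor ranges did not meet.

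Blk, the kinase, was the scarcest member in tumor libraries, with 0.0672 to 1.12 CPM (median 0.202) against 3.98 to 55.2 CPM (median 5.93) in no-tumor libraries. Those tumor values rest on 2 to 34 counts per library, against 126 to 1581 without a tumor. Counting error alone is therefore large for Blk in tumor mice. Pax5, the transcription factor, was at 0.22 to 4.35 CPM (median 0.639) in tumor libraries, from 6 to 119 counts, and at 9.18 to 85.4 CPM (median 10.3) in no-tumor libraries.

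Cd22, the inhibitory receptor, was at 1.69, 1.44 and 2.23 CPM in anti-Tim-4 tumor Tim-4low libraries and at 2.56, 2.81 and 3.22 CPM in the Tim-4high libraries, so that the 2 populations did not overlap. Isotype tumor libraries had 2.19, 1.92 and 6.04 CPM in Tim-4low and 1.92, 2.65 and 6.24 CPM in Tim-4high cells. No-tumor libraries had 94.0, 11.8 and 16.5 CPM in Tim-4low and 28.2, 10.5 and 11.6 CPM in Tim-4high cells. The isotype populations overlapped, as did the no-tumor populations.

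Bank1, the scaffold, was at 11.4, 8.13 and 7.47 CPM in anti-Tim-4 tumor Tim-4low libraries and 13.1, 11.5 and 10.7 CPM in the Tim-4high libraries. Isotype tumor libraries had 8.34, 6.02 and 12.5 CPM in Tim-4low and 22.8, 17.8 and 23.7 CPM in Tim-4high cells. No-tumor libraries had 122, 48.2 and 59.8 CPM in Tim-4low and 92.8, 51.8 and 64.5 CPM in Tim-4high cells. The isotype Tim-4high libraries were thus above all other tumor libraries. Isotype Tim-4low library 3 was the highest of its group, as for the other members, but the isotype Tim-4high library 3 was close to library 1.

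Ordered by their means, the groups ran from anti-Tim-4 Tim-4high to isotype and then no-tumor Tim-4low for Cd79a, at 1.16 ± 0.31 and 1.69 ± 0.67 CPM in anti-Tim-4 Tim-4high and Tim-4low, 2.85 ± 2.87 and 3.83 ± 3.98 CPM in isotype Tim-4high and Tim-4low, and 30.1 ± 23.1 and 78.8 ± 101 CPM in no-tumor Tim-4high and Tim-4low cells (SD, n = 3 each). The 4 tumor groups overlapped in that order, as did the 2 no-tumor groups, and the step between tumor and no tumor had no overlap. For Bank1 the means were 8.95 ± 3.29 CPM in isotype Tim-4low, 8.995 ± 2.09 and 11.8 ± 1.26 CPM in anti-Tim-4 Tim-4low and Tim-4high, 21.4 ± 3.20 CPM in isotype Tim-4high, and 69.7 ± 21.0 and 76.7 ± 39.8 CPM in no-tumor Tim-4high and Tim-4low cells (SD, n = 3 each). Its isotype Tim-4high group overlapped neither its lower nor its upper neighbour in that order.

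The first comparison asked how the tumor-bearing cavity differed from the untreated one. All 7 members fell in both populations and under both antibodies (edgeR quasi-likelihood test, Benjamini-Hochberg adjusted p under 0.05 over all genes). None of the 7 overlapped between groups. Of all genes, 26.7% and 29.8% were lower with no overlap in Tim-4low and Tim-4high cells with anti-Tim-4, and 28.9% and 28.1% with isotype. In anti-Tim-4 tumor mice against no tumor, 7 of 7 were lower in Tim-4low cells, where 22.9% of all genes were called lower, and 7 of 7 in Tim-4high cells, where 25.5% were. In isotype tumor mice, 7 of 7 were lower in Tim-4low cells, against 24.6% of all genes, and 7 of 7 in Tim-4high cells, against 24.1%. The 4 comparisons share the no-tumor libraries of each population. In bulk RNA, fewer B cells in the sorted sample and less RNA of these genes per cell cannot be told apart, and the tumor cannot be told apart from the antibody injections that no-tumor mice did not receive.

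In anti-Tim-4 tumor mice the median log2 fold change of the 7 was -5.53 in Tim-4low and -4.69 in Tim-4high cells, where the median over all genes was -0.0321 and -0.0189. In isotype tumor mice it was -4.29 and -3.41, against -0.0216 and -0.00708 over all genes. Cd79a changed by -5.53 ± 1.06 (adjusted p = 0.000611) and -4.69 ± 1.10 (adjusted p = 0.00205) with anti-Tim-4 in Tim-4low and Tim-4high cells. With isotype it changed by -4.36 ± 0.98 (adjusted p = 0.00174) and -3.41 ± 0.98 (adjusted p = 0.0089). Blk had the lowest fold change in all 4 comparisons, from -6.46 ± 1.15 with anti-Tim-4 in Tim-4low cells to -4.40 ± 1.07 with isotype in Tim-4high cells, on the few counts given above.

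Bank1 had the smallest p in each of these 4 comparisons. With anti-Tim-4 its log2 fold change was -3.09 ± 0.34 in Tim-4low cells (adjusted p = 4.78e-06) and -2.57 ± 0.34 in Tim-4high cells (adjusted p = 1.41e-05). With isotype it was -3.10 ± 0.34 (adjusted p = 3.63e-06) and -1.70 ± 0.32 (adjusted p = 0.000428). The log2 fold changes of the other 4 members lay between -5.69 ± 1.14 (Ms4a1, anti-Tim-4 Tim-4low, adjusted p = 0.000837) and -2.22 ± 0.71 (Cd22, isotype Tim-4high, adjusted p = 0.0166). In isotype Tim-4high cells Cd79b changed by -3.69 ± 0.94 (adjusted p = 0.00395) and Pax5 by -3.21 ± 0.98 (adjusted p = 0.0125).

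These sizes depended on the libraries that stood apart. Without both no-tumor libraries 1, the medians were -3.58 and -3.85 with anti-Tim-4 in Tim-4low and Tim-4high cells, and -2.42 and -2.49 with isotype, with 7 of 7 called in each. Without both isotype libraries 3, the isotype medians were -5.48 and -4.90, and without both pairs of libraries they were -3.56 and -3.97, again with 7 of 7 called. Left out singly, no-tumor Tim-4high library 1 ended the isotype Tim-4high calls of Cd22 (adjusted p = 0.0828), Ms4a1 (0.0616) and Pax5 (0.0534). Isotype Tim-4high library 1 or 2, left out singly, ended those of Cd22 and Pax5 (adjusted p of 0.0517 to 0.0662).

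**Figure D2:**
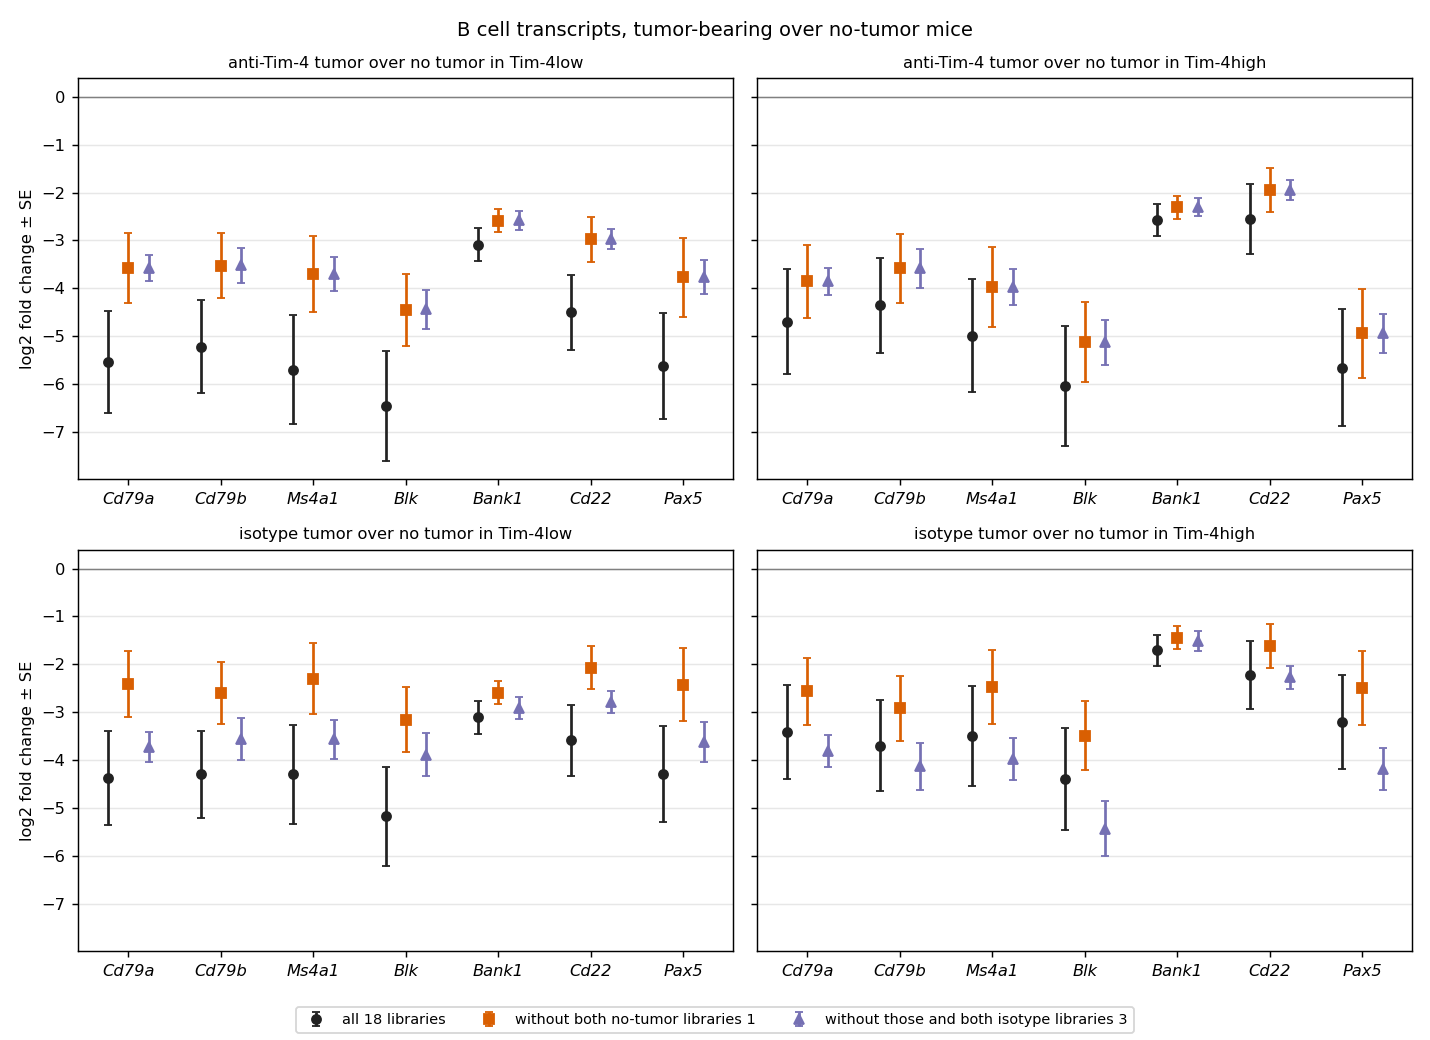
Log2 fold change with its standard error of each member, tumor-bearing over no-tumor mice, with 1 panel for each antibody and population and 3 choices of libraries. Every value is below 0, Bank1 and Cd22 lie nearest to 0 in Tim-4high cells in all 3 choices, and leaving out no-tumor libraries 1 moves the other members up by more than Bank1.

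The next comparison was between the 2 populations within a condition. With anti-Tim-4, 0 of 7 members were called by edgeR, where 1.39% of all genes were, and 0 had an unadjusted p under 0.05. With isotype, Bank1 alone was called, 1 of 7 where 24.1% of all genes were. Without a tumor 0 of 7 were called, where 24.6% of genes were, and 0 had an unadjusted p under 0.05. DESeq2 called 0, 1 and 0 of the 6 members to which it gave an adjusted p. The log2 fold changes of the 6 members other than Bank1 were 1.05 ± 0.85 (Pax5) to 1.40 ± 0.78 (Cd79b) without a tumor, with Cd79a at 1.38 ± 0.85 (adjusted p = 0.271) and Cd22, which had the smallest p, at 1.28 ± 0.66 (adjusted p = 0.185). Cd79a stood at 0.43 ± 1.01 (adjusted p = 0.813) with isotype and at 0.55 ± 1.23 (adjusted p = 0.897) with anti-Tim-4.

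The labels do not say that library numbers pair the populations. Numbers were taken as pairs within a condition from the correlation of these same libraries. Same-numbered libraries correlated at 0.155 to 0.489 and others at -0.432 to 0.209, ranges that overlapped. On that assumption the ratio of Tim-4low to Tim-4high was also taken within each number. In no-tumor library 1 the 6 members other than Bank1 were 2.86 to 3.45 times as high in Tim-4low as in Tim-4high cells, 6 of 6 above 1. In no-tumor libraries 2 and 3 the ratios were 0.799 to 1.33 and 1.02 to 1.44, with 4 of 6 and 6 of 6 above 1. With library number as a replicate block, 4 of 7 members rose in no-tumor Tim-4low cells, where 17.8% of all genes were called higher: Cd79b by 0.96 ± 0.24 on the log2 scale (adjusted p = 0.00938), Ms4a1 by 0.82 ± 0.22 (adjusted p = 0.0129), Cd22 by 0.85 ± 0.23 (adjusted p = 0.013) and Cd79a by 0.83 ± 0.24 (adjusted p = 0.0173). With the block and without both libraries 1, 0 of the 7 were called and Cd79a stood at 0.26 ± 0.13 (adjusted p = 0.166), so those calls rested on library 1.

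**Figure D3:**
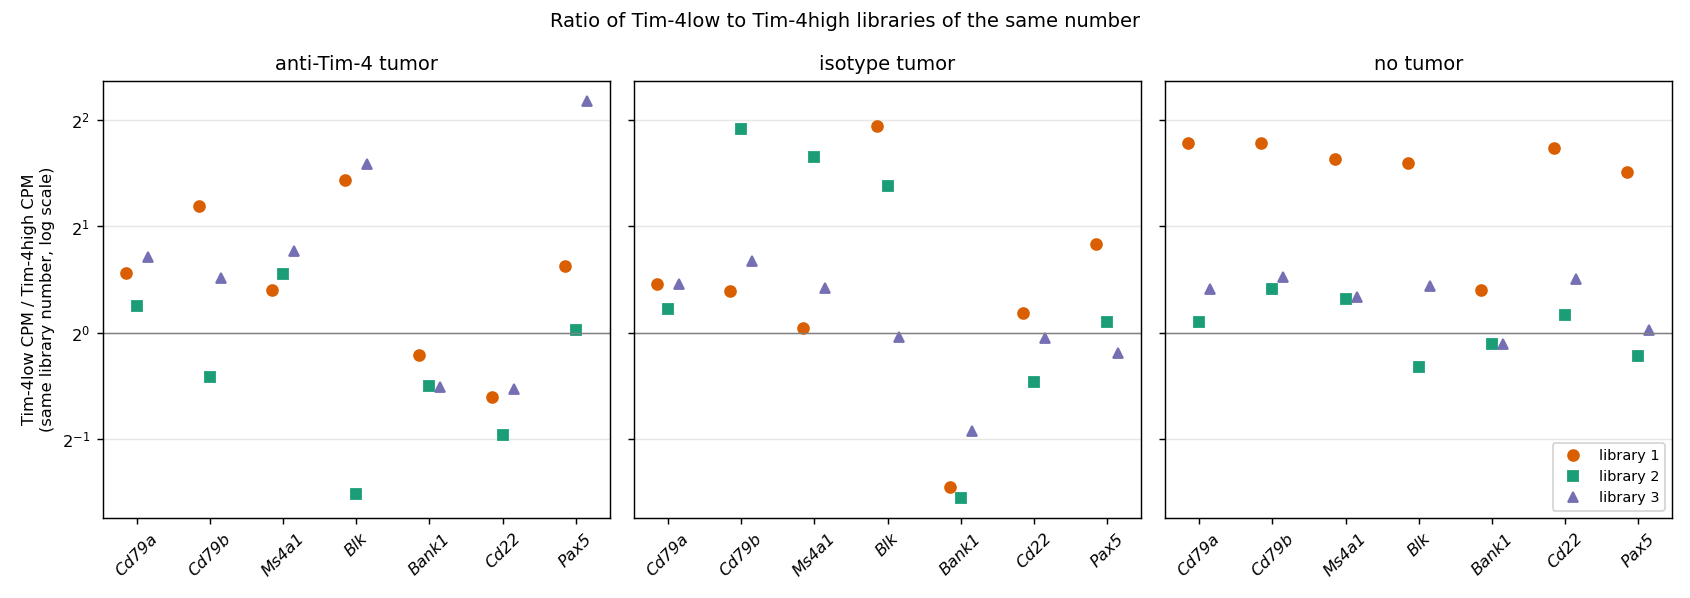
Ratio of Tim-4low to Tim-4high CPM (log scale) for each member, taken between libraries of the same number in each condition. The 6 members other than Bank1 lie at 2.86 to 3.45 in no-tumor library 1, while Bank1 lies at 0.339 to 0.528 in all 3 isotype pairs and Cd22 below 1 in all 3 anti-Tim-4 pairs.

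Bank1 and Cd22 departed from this. Bank1 was at 0.365, 0.339 and 0.528 times its Tim-4high level in the Tim-4low isotype libraries 1 to 3, and at 0.867, 0.707 and 0.702 times with anti-Tim-4. Without a tumor the ratios were 1.32, 0.929 and 0.928. The log2 fold change was -1.26 ± 0.33 with isotype (adjusted p = 0.0124), -0.39 ± 0.34 with anti-Tim-4 (adjusted p = 0.684) and 0.14 ± 0.31 without a tumor (adjusted p = 0.803). The isotype call was lost without isotype Tim-4low library 2 (-1.04, adjusted p = 0.0658), and with the replicate block it was -1.29 ± 0.14 (adjusted p = 2.18e-05). Cd22 ratios were 0.658, 0.514 and 0.692 with anti-Tim-4, 1.14, 0.727 and 0.969 with isotype, and 3.33, 1.12 and 1.42 without a tumor.

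The difference between conditions was tested as an interaction, chosen after seeing the data. Isotype against no tumor, the log2 fold change of Bank1 between populations differed by -1.40 ± 0.46 (adjusted p = 0.115), and 0 of 7 members were called where 3.53% of genes were. For anti-Tim-4 against no tumor 0 of 7 were called (6.59% of genes), with Cd22 at -1.95 ± 1.02 (adjusted p = 0.292). For anti-Tim-4 against isotype 0 of 7 were called (2.93% of genes), with Bank1 at 0.87 ± 0.47 (adjusted p = 0.337). With the replicate block these calls changed. Bank1 then differed between isotype and no tumor by -1.36 ± 0.18 (adjusted p = 0.000759, 1 of 7 called against 11.2% of genes) and between anti-Tim-4 and isotype by 0.89 ± 0.20 (adjusted p = 0.00934, 1 of 7 against 15.7%). Cd22 differed between anti-Tim-4 and no tumor by -1.53 ± 0.39 (adjusted p = 0.0199, 1 of 7 against 16.8%). Calls of 1 of 7 lie near these shares of all genes. Without both no-tumor libraries 1 these 3 differences were -1.18 ± 0.16, 0.89 ± 0.16 and -1.03 ± 0.23 (adjusted p = 0.000543, 0.0026 and 0.0104). Without both isotype libraries 3 they were -1.57 ± 0.17, 1.11 ± 0.19 and -1.54 ± 0.41 (adjusted p = 0.000495, 0.00249 and 0.0275).

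The antibody comparison was made within tumor mice. Anti-Tim-4 over isotype, 0 of 7 members were called in Tim-4low cells, where 0.325% of all genes were, and 0 of 7 in Tim-4high cells, where 7.97% were. In Tim-4low cells Cd79a stood at -1.17 ± 1.05 (adjusted p = 0.679) and Ms4a1, with the smallest p, at -1.40 ± 1.12 (adjusted p = 0.633), and 0 members had an unadjusted p under 0.05. In Tim-4high cells Cd79a stood at -1.29 ± 1.18 (adjusted p = 0.521). Without both isotype libraries 3 the medians of the 7 were -0.127 in Tim-4low and 0.000867 in Tim-4high cells, in place of -1.17 and -1.29.

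Bank1 was the 1 member with an unadjusted p under 0.05 in the Tim-4high comparison, and its anti-Tim-4 and isotype libraries did not overlap (10.7 to 13.1 CPM against 17.8 to 23.7 CPM). Its log2 fold change of -0.86 ± 0.33 (adjusted p = 0.114) did not pass. It passed at -0.87 with DESeq2 (adjusted p = 0.0445), at -0.87 with the 2 groups fitted alone (adjusted p = 0.00698), at -0.86 with the replicate block (adjusted p = 0.0456) and at -0.86 without both no-tumor libraries 1 (adjusted p = 0.0279). It did not pass with RLE factors (adjusted p = 0.111), without the filter on low counts (0.136), with robust estimation (0.14), without both isotype libraries 3 (0.241) or without any single library of the 2 groups (0.108 to 0.314). The replicate block in this comparison was a library-number term shared by all conditions, a pairing that the library correlations given below do not bear out. In the authors' deposited table of this comparison, Bank1 had a fold of -1.82 (FDR 4.81e-07) and Pax5 one of -5.5 (FDR 0.0131), where a minus sign marks a decrease with anti-Tim-4. In that table the other 5 members had an FDR of 0.095 or more. The authors' deposited table for the no-tumor populations held 4 of the 7 members, Bank1, Blk, Cd22 and Cd79b, with FDR values of 0.465 to 0.876.

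The balance among members was compared through ratios to Cd79a. Per kilobase of transcript, Cd79b was at a median of 0.944 times the Cd79a level in anti-Tim-4, 0.769 times in isotype and 0.833 times in no-tumor libraries (6 libraries each). Ms4a1 was at 0.404, 0.489 and 0.473 times in the same order, and Pax5 at 0.0575, 0.0949 and 0.0982 times. Blk was at 0.084 (0.0345 to 0.117), 0.102 (0.0562 to 0.158) and 0.191 (0.151 to 0.21) times, lower at the median in both tumor conditions. Its isotype and no-tumor ranges overlapped, and its tumor values rest on the few counts given above. Cd22 and Bank1 were relatively higher at the median in the tumor conditions. Cd22 was at 0.677 (0.358 to 1.14), 0.518 (0.284 to 0.996) and 0.26 (0.19 to 0.28) times the Cd79a level, and Bank1 at 3.58 (1.38 to 6.7), 2.15 (0.678 to 7.75) and 1.22 (0.285 to 1.68) times. Tumor and no-tumor libraries did not overlap in the Cd22 ratio, and they overlapped in that of Bank1. These ratios are given without a test.

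The 7 members together made up 0.00128% to 0.00462% of all estimated counts, without TMM scaling, in tumor libraries and 0.012% to 0.0976% in no-tumor libraries. Bank1 was 42.4% to 69.3% of that sum in anti-Tim-4, 27.4% to 78.7% in isotype and 14.1% to 46% in no-tumor libraries. In each of the 3 conditions the lowest share of Bank1 was in the library with the highest sum of the other 6 members. As those 6 are part of the sum that the share is taken of, this is in part built into the ratio. Across the 18 libraries, which differ in depth and share their groups, the pairwise correlations of log2(CPM + 1) among the members other than Bank1 were 0.976 to 0.996, and those of Bank1 with the others were 0.887 to 0.911.

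Transcript estimates placed most reads of each member on coding isoforms. Cd79b-202 held 83.3% of Cd79b estimates over the tumor libraries and 94.2% over the no-tumor libraries, Bank1-201 held 84% and 86%, and Pax5-201 held 98.5% and 97.7%. Cd22 was spread over 10 annotated transcripts, the most abundant in tumor libraries being Cd22-210 with 28.2%, against 19.2% without a tumor. Cd22-203 held 22.9% in tumor and 45.4% in no-tumor libraries. In single tumor libraries the Cd22-203 share was 1.08% to 48%, on few counts, and the no-tumor range of 39% to 67.2% overlaps it.

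Most genes of the B cell and immunoglobulin lists were also lower in tumor mice, while the plasma cell list was split. Of 12 tested genes on a list of further B cell genes, 12 were lower with anti-Tim-4 and 12 with isotype in Tim-4low cells against no tumor, and 10 and 11 in Tim-4high cells, with 0 higher. Their median log2 fold changes were -5.15, -4.05, -4.30 and -2.98 in that order, beside the all-gene medians given above. Fcrl1 and Ralgps2 were the genes not called in Tim-4high cells with anti-Tim-4 (adjusted p = 0.0683 and 0.227), and Fcrl1 the one not called with isotype (adjusted p = 0.0754). Of all genes, 22.9% and 25.5% were called lower with anti-Tim-4 in Tim-4low and Tim-4high cells, and 24.6% and 24.1% with isotype.

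Immunoglobulin constant genes moved the same way, in comparisons where 22.9% to 25.5% of all genes were called lower. Of 8 tested, 7 were lower in both populations with anti-Tim-4, and 7 in Tim-4low and 6 in Tim-4high cells with isotype, with 0 higher. Their summed level was 4.77 to 14.9 CPM in anti-Tim-4, 5.80 to 64.5 CPM in isotype and 92.0 to 1301 CPM in no-tumor libraries. Ighm, the heavy chain of IgM, changed by -5.27 ± 1.01 with anti-Tim-4 (adjusted p = 0.000613) and by -4.07 ± 0.95 with isotype (adjusted p = 0.00227) in Tim-4low cells. Without the replicate block, these 8 genes and the 12 of the B cell list had 0 calls between anti-Tim-4 and isotype and between populations in any condition, and the blocked fit is not given for the lists.

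Of 6 tested plasma cell genes, 1 was higher and 3 lower with anti-Tim-4 in Tim-4low cells against no tumor, and 2 were higher and 2 lower in Tim-4high cells. With isotype 2 were higher and 3 lower in Tim-4low cells, and 3 were higher and 2 lower in Tim-4high cells. Of all genes, 23.8% and 27.4% were called higher with anti-Tim-4 in Tim-4low and Tim-4high cells, and 25.2% and 27.3% with isotype. The shares called lower were 22.9% and 25.5% with anti-Tim-4, and 24.6% and 24.1% with isotype. The summed level of the 8 plasma cell genes was 230.1 to 348.8 CPM in tumor and 222.1 to 563.7 CPM in no-tumor libraries, so the ranges overlapped. As single genes of the list moved in both directions, this sum does not stand for plasma cell content. Mzb1 of this list correlated with the mean pattern of the members at 0.990, on log2(CPM + 0.1).

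Genes that tell B cell subsets apart were counted in the same way. Of 4 follicular B cell genes (Ighd, Fcer2a, Cr2 and Cxcr5), 4 were lower in both populations with anti-Tim-4, and 4 in Tim-4low and 3 in Tim-4high cells with isotype. Of 4 B-1 cell genes, 2 were lower in both populations with anti-Tim-4, and 2 in Tim-4low and 1 in Tim-4high cells with isotype. The shares of all genes called lower in these comparisons were 22.9% and 25.5% with anti-Tim-4 and 24.6% and 24.1% with isotype, so that 1 of 4 is near the share of all genes. Zbtb32 was called in all 4 comparisons and Fcrl5 in 3, while Cd5, which T cells also express, and Bhlhe41 were called in 0. Summed B-1 genes were at 8.69 to 27.2 CPM in tumor and 9.74 to 86.6 CPM in no-tumor libraries, so the ranges overlapped. Summed follicular genes were at 0.435 to 7.29 and 11.55 to 129.9 CPM. Which cells these sums come from was not tested, so the B-1 sum does not stand for B-1 cell content. The difference between the 2 lists was not tested, and 3 of the follicular genes also stand on the further B cell list.

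Genes that relay the receptor's signal, many of them also used by macrophages, did not move as a block. Of 24 tested, 6 were higher and 10 lower with anti-Tim-4 in Tim-4low cells, 11 and 9 in Tim-4high cells, and 8 and 9 with isotype in either population, against no tumor. Of all genes, 23.8% to 27.4% were called higher and 22.9% to 25.5% lower in these comparisons, and several of the counts, such as 6 of 24, lie near those shares. Their summed level was 3934 to 4377 CPM in anti-Tim-4, 3648 to 4280 CPM in isotype and 3304 to 4063 CPM in no-tumor libraries. The list is not free of B cell genes, as it includes Cr2, which is also counted above among them. Between populations, 0 were higher and 1 lower in Tim-4low cells with anti-Tim-4, 5 and 2 with isotype, and 7 and 4 without a tumor.

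The genes most like the members were sought over the 18 libraries by the correlation of log2(CPM + 1) with the mean of the standardised members, leaving out gene segments and predicted models. The members themselves correlated with that mean at 0.930 (Bank1) to 0.995 (Cd79a). Among the 10 most similar genes were Iglc2 (0.993), Ebf1, Igkc, Fcmr, Chst3, Cacna1e, Pou2af1, Cacna1i and Spib (0.987). Of the 10, 8 were also named with log2(CPM + 0.1) and 7 without both no-tumor libraries 1. Ebf1, a transcription factor of early B cells, was at 0.0777 to 0.322 CPM in anti-Tim-4, 0.0951 to 1.46 CPM in isotype and 2.65 to 21.5 CPM in no-tumor libraries. Cacna1e, which encodes a calcium channel subunit, was at 0.269 to 0.705, 0.284 to 1.66 and 7.46 to 72.0 CPM in the same order.

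Markers of some other cells were also high in libraries that stood apart. In isotype library 3 the summed T cell markers (15 genes) reached 182 CPM for Tim-4low and 164 CPM for Tim-4high cells. The other isotype libraries held 23.9 to 40.8 CPM, beside 15.1 to 37.2 CPM with anti-Tim-4 and 15.2 to 131.6 CPM without a tumor. No-tumor library 1 was the highest of its group in both populations. It held 131.6 CPM of T cell markers in Tim-4low cells, against 54.7 and 74.9 CPM in libraries 2 and 3. In Tim-4high cells it held 42.1 CPM, against 15.2 and 17.3 CPM. Of these markers 1 was higher and 1 lower with anti-Tim-4 and 10 higher and 1 lower with isotype in Tim-4low cells against no tumor, where all 7 B cell members were lower. In Tim-4high cells 0 were higher and 2 lower with anti-Tim-4, and 11 higher and 0 lower with isotype. The shares of all genes called higher were 23.8% and 27.4% with anti-Tim-4 and 25.2% and 27.3% with isotype in Tim-4low and Tim-4high cells. Those called lower were 22.9% and 25.5% with anti-Tim-4 and 24.6% and 24.1% with isotype. NK cell markers (9 genes) reached 105.9 and 97.6 CPM in the isotype libraries 3, against 11.2 to 29.2 CPM in the other isotype libraries. In no-tumor Tim-4low library 1 they were at 11.75 CPM, below the 24.8 and 22.8 CPM of libraries 2 and 3. In no-tumor Tim-4high library 1 they were at 6.80 CPM, above the 4.03 and 1.66 CPM of libraries 2 and 3. Neutrophil markers (8 genes) of no-tumor Tim-4low library 1, at 288.2 CPM, lay between the 253.5 and 329.5 CPM of libraries 2 and 3. In the isotype libraries 3 they reached 424.3 CPM for Tim-4low and 420.9 CPM for Tim-4high cells. The other isotype libraries held 96.2 to 126.1 CPM. Dendritic cell markers (10 genes) reached 75.7 and 78.7 CPM in the isotype libraries 3, against 17.9 to 36.8 CPM in the other isotype libraries. Cd3e, a chain of the T cell receptor complex, was at 0.539 to 1.98, 0.978 to 9.91 and 0.0377 to 1.43 CPM in anti-Tim-4, isotype and no-tumor libraries.

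Mast cell markers (8 genes) of no-tumor Tim-4low library 1 summed to 154 CPM, against 8.99 and 13.1 CPM in the other libraries of that group. For Tim-4high library 1 the sum was 159 CPM, against 48.6 and 61.2 CPM, and isotype Tim-4high libraries held 130.6 to 160.7 CPM. Of 6 tested mast cell markers, 4 were lower in each of the 4 comparisons of tumor against no tumor, with median log2 fold changes of -4.96 and -5.80 with anti-Tim-4 and -4.46 and -3.93 with isotype in Tim-4low and Tim-4high cells. In Tim-4high cells with anti-Tim-4 0 were higher, and 1 was in each of the other 3 comparisons. Of all genes, 22.9% and 25.5% were called lower with anti-Tim-4 in Tim-4low and Tim-4high cells, and 24.6% and 24.1% with isotype. Single mast cell markers thus fell together with the B cell members, while the summed level ran over 27.6 to 160.7 CPM in tumor and 8.99 to 158.6 CPM in no-tumor libraries. Eosinophil markers summed to 35.96 and 9.82 CPM in the no-tumor libraries 1, against 1.77 to 4.33 CPM in the other no-tumor libraries. The part of other cells in the level of the B cell members was not tested. Genes annotated as antisense overlap Ms4a1, Bank1, Cd22 and Pax5. Of these, the gene table lists the 1 at Cd22, Gm29439, whose count reached at most 5.14 in any library. A further opposite-strand gene at Pax5, 5730488B01Rik, reached at most 26.5.

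**Figure D4:**
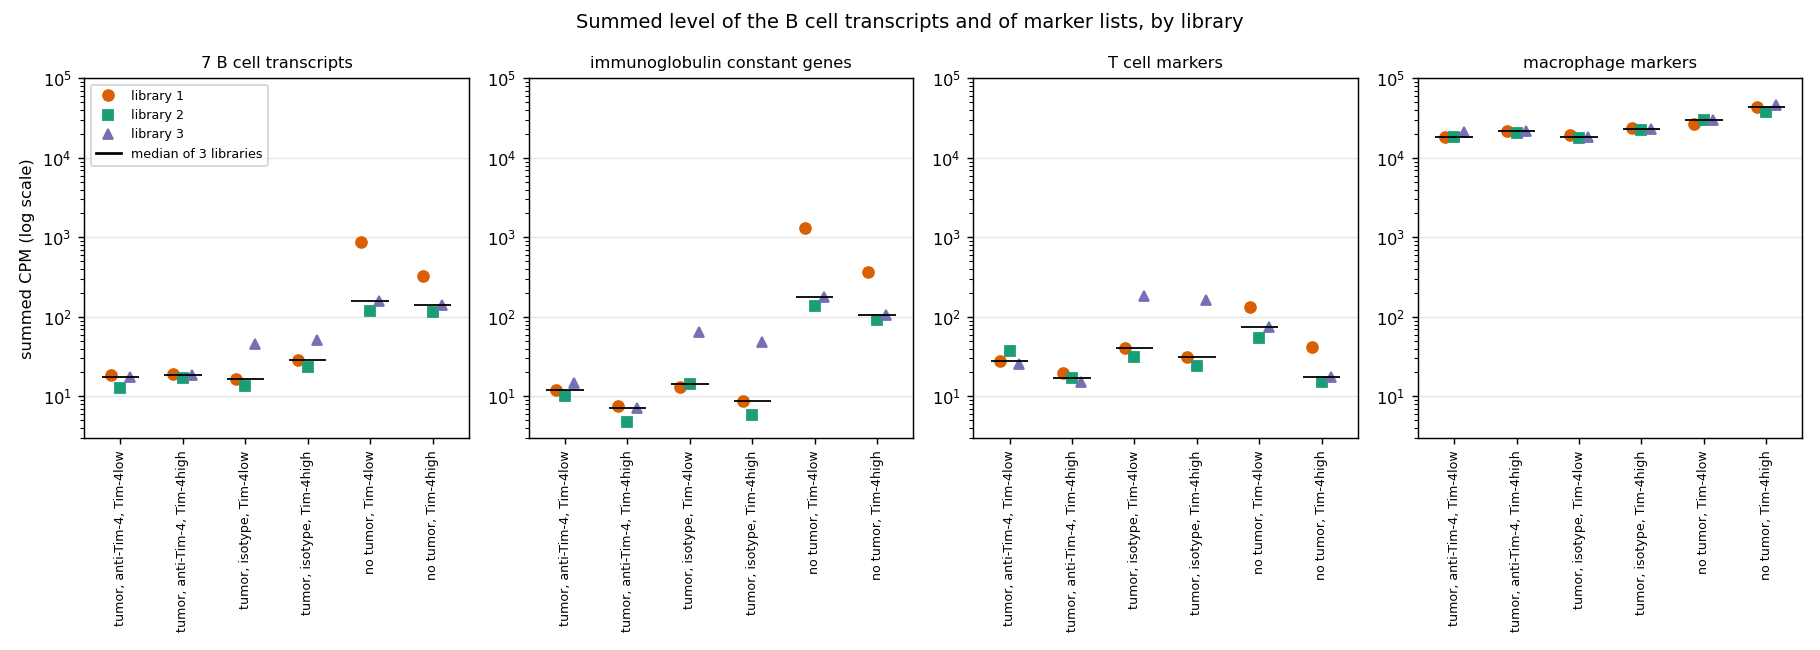
Summed CPM (log scale) of the 7 B cell transcripts, of immunoglobulin constant genes, of T cell markers and of macrophage markers in the 18 libraries, with a bar at the median of each group. The B cell and immunoglobulin sums are highest in no-tumor library 1 and, among tumor libraries, in isotype library 3, where T cell markers also reach 164 to 182 CPM.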

How the data were processed

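RNA sequencing of 18 libraries in 6 groups of 3 was used. Estimated counts for genes and transcripts, not normalized, were deposited by the authors. STAR, DESeq2 and the build mm10 come from the submitters' processing notes, which state neither quantifier, annotation release nor strand. The authors' deposited tables hold p-values, FDR values and signed linear fold values for 2 comparisons.

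Estimated counts were rounded to whole numbers. With edgeR 4.0.16 (R 4.3.3), filterByExpr kept 16609 of 23511 genes, and 1 quasi-likelihood model covered the 6 groups (TMM scaling, 12 residual degrees of freedom). A gene counted as called when its p, adjusted after Benjamini and Hochberg over all tested genes, was under 0.05. Errors after ± are standard errors for log2 fold changes (size of the change over the root of the F statistic) and SD for levels. DESeq2 1.42.0 was an alternative, beside RLE scaling, keeping low-count genes, robust dispersions, fitting 2 groups alone, the replicate block and left-out libraries. The scripts were tested on simulated data. Totals of 24530070 or more per library leave genes of few counts imprecise.

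The 7 members and the lists were chosen with earlier results of these data known. Named were all 7 members, fold changes of called members, of Cd79a and of the member with the smallest p, and the 10 genes of most similar pattern; other genes come from the lists, and 1 gene is not reported here. Within a condition, deviations of same-numbered libraries from their group means correlated at 0.155 to 0.489 (9 pairs), those of other numbers at -0.432 to 0.209. Across conditions the same number gave -0.294 to 0.16. Numbers were therefore taken to pair populations within a condition only, from the data and not from the labels. For comparisons across conditions, however, the replicate block was a library-number term shared by all conditions. The correlations across conditions do not bear out such a pairing.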

Additional observations from a re-analysis of the deposited data

Results flagged for a closer look

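Cd22 was below 1 in all 3 numbered Tim-4low over Tim-4high ratios with anti-Tim-4 (median 0.658) and above 1 in all 3 without a tumor (median 1.42). The difference was -1.95 ± 1.02 on the log2 scale as an interaction without pairing (adjusted p = 0.292) and -1.5341 ± 0.39 with the replicate block (adjusted p = 0.0199, edgeR). In tumor libraries Cd22 rests on 43 to 189 counts.

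Bank1 had a Tim-4low over Tim-4high log2 fold change that differed between isotype and no tumor by -1.3583 ± 0.18 with the replicate block (adjusted p = 0.000759, edgeR) and by -1.40 ± 0.46 without it (adjusted p = 0.115). Between anti-Tim-4 and isotype it differed by 0.8941 ± 0.20 with the block (adjusted p = 0.00934) and by 0.87 ± 0.47 without it (adjusted p = 0.337). Both differences share the isotype libraries, and the causes were not tested.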

How the results depend on the processing

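The calls of all 7 members against no tumor held in all 4 comparisons with RLE factors, no filter, robust estimation, the compared groups alone, the replicate block and both sets of left-out libraries. Across conditions the block was a library-number term shared by all conditions, a pairing not borne out by the data. DESeq2 called 6 of 6, with no adjusted p for Pax5. Leaving out single libraries left 7 called, except 4 to 7 for isotype in Tim-4high cells (4 without no-tumor Tim-4high library 1). Between isotype populations 0 to 1 were called (0 without isotype Tim-4low library 2). With the replicate block (paired), 4 members were called between no-tumor populations. With the block and without both no-tumor libraries 1, added after seeing the data, 0 were called between no-tumor, 2 between isotype and 1 between anti-Tim-4 populations. For anti-Tim-4 over isotype among Tim-4high cells, 1 member was called with DESeq2, the compared groups alone, the replicate block (adjusted p = 0.0456), both no-tumor libraries 1 left out, and these with both isotype libraries 3 left out (added). The causes were not tested.

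Over single left-out libraries, the log2 fold change of Tim-4low over Tim-4high ranged over -0.57 to 2.20 (Cd79a) and -0.25 to 1.86 (Cd22) without a tumor, and -0.88 to 1.68 (Cd79a) with isotype. That of Cd79a for anti-Tim-4 over isotype in Tim-4low cells ranged over -1.58 to 0.15, and was 0.16 without both isotype libraries 3 and 0.15 also without both no-tumor libraries 1. Library totals or RLE factors moved no member's group mean by more than its SD. With few counts, Blk and Pax5 are the least precise members in tumor mice.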
